A study of Mus musculus with 16 samples.

Results

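The scavenger receptor group described here comprises 8 genes, Cd36, Msr1, Marco, Olr1, Cd14, Cd68, Scarb1 and Scarb2, found by their symbols among the 45664 gene entries of a count table from sorted mouse myeloid cells. All 8 were among the 15754 entries with enough counts to be tested, although Marco passed that filter through its cornea counts alone. The study set 4 populations of C57BL/6 mice aged 8 to 10 weeks side by side, with 4 RNA-seq libraries each. All were gated on CD45 and CD11b; the microglia, from retina or whole brain, on these alone. For the macrophages of the cornea, CD64 and F4/80 were added to the gate, and for the monocytes of the bone marrow CD115 and Ly6C. The sample labels name no treatment, transgene or mutant allele, but the extraction text attached to every sample speaks of ventral pons from CX3CR1GFP/wt mice after facial nerve axotomy, against the named sources; it was not used for grouping. A cornea or retina library came from 10 pooled mice. The notes on the brain and marrow libraries name another population, so their pool size is not used here and their group was taken from the named source. Corneas were digested with warm collagenase, whereas retinas were dispersed mechanically in the cold, so tissue and isolation cannot be told apart. The labels do not say that the pools came from separate animals or days, so p-values measure only the spread between these libraries, which may be technical.

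Scavenger receptors are cell surface or lysosomal proteins that bind modified lipoproteins, bacterial wall components, apoptotic cells and other polyanionic or lipid ligands and carry them into the cell. They belong to unrelated protein families. CD36, SR-BI (gene Scarb1) and LIMP-2 (gene Scarb2) share one fold and bind lipids or lysosomal enzymes; SR-A1 (gene Msr1) and MARCO are collagen-containing class A receptors; LOX-1 (gene Olr1) is a C-type lectin-like receptor; CD68 is a heavily glycosylated protein of late endosomes; and CD14 is a lipid-anchored co-receptor for lipopolysaccharide. In tissue macrophages they serve clearance and lipid uptake, and several are used as markers of macrophage state.

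Levels are CPM, counts relative to library size, with the size scaled by TMM, a factor per library computed over the tested genes. The libraries held 8677418 to 21756558 counts each. Marker genes of the sorted populations were as follows: Tmem119, P2ry12 and Sall1 were high in both microglia, Ly6c2 reached 2464 ± 141 CPM (SD, n = 4) in monocytes and stayed below 1 CPM in the other libraries, and Adgre1 (F4/80) reached 2515 ± 106 CPM in cornea. Fcgr1, which encodes the CD64 used in the cornea sort, was lowest there, at 71.3 ± 10.2 CPM. Libraries of a population were not alike in all markers. Cornea libraries 2 and 4 held more of a 6-gene dendritic cell list (173 and 154 CPM against 82.6 and 87.2) and of a 5-gene monocyte list (1072 and 1064 against 536 and 637), a sum made mostly of F13a1; Ly6c2 of that list was at 0 in libraries 2 and 4 and at 0.113 and 0.615 CPM in libraries 1 and 3. Monocyte libraries 1 to 4 held 4493, 2083, 738 and 721 CPM of 10 granulocyte genes and 2051, 1340, 379 and 307 CPM of 8 erythroid genes. The 12 immediate-early and dissociation genes listed summed to 22999 to 34071 CPM in cornea and to 465 to 2337 CPM elsewhere. Cornea libraries also held 234 to 1380 CPM of 8 corneal epithelium genes and 1393 to 2594 CPM of 8 keratocyte and fibroblast genes, which summed to at most 3.14 and 2.08 CPM elsewhere. The part of these transcripts in the results was not tested.

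Upstream sequences are shown for 4 genes that were highest in cornea and for which the RefSeq promoter table (GRCm38.p6) has an entry outside annotated exons: the 250 bases before the start site, 5′ to 3′ on the gene's strand. Capitals mark matches, on either strand, to the words GAGGAA (the core bound by the myeloid factor PU.1), TGANTCA (AP-1), TTGCNNAA (C/EBP), GGGCGG (GC box) and AGGTCA (nuclear receptor hexamer), none of which overlapped another here.
Marco, chr1:120505025-120505274, minus strand: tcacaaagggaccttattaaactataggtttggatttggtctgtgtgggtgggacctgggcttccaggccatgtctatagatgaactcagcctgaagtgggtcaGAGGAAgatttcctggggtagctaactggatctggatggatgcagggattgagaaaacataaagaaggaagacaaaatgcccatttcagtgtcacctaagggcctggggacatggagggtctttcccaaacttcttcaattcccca
Olr1, chr6:129507166-129507415, minus strand: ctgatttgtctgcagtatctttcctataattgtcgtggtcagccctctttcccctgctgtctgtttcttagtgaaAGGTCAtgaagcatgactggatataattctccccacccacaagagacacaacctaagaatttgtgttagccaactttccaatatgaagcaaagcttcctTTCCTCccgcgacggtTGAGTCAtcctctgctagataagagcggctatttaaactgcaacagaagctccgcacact
Cd68, chr11:69666171-69666420, minus strand: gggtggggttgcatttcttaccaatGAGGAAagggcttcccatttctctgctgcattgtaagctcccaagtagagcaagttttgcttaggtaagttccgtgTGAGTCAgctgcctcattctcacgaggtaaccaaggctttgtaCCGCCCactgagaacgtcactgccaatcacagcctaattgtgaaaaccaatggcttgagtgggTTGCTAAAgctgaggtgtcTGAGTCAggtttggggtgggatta
Cd36, chr5:17835897-17836146, minus strand, inside the annotated gene before one of its later start sites: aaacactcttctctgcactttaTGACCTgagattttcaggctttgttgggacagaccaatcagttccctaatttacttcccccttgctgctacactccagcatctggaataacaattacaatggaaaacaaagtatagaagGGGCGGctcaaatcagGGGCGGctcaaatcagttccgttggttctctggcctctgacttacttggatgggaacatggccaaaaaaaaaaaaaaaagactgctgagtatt
Together with Scarb2, whose window lies within an annotated exon and is not printed, 5 of the 8 genes had an entry. GAGGAA was present in 3 of the 5 windows (Marco, Olr1 and Cd68) and in 23.3% of all 32851 windows of that length in the table. AP-1 words were present in Olr1 and, at 2 places, in Cd68, against 6.75% of all windows. The C/EBP word was found in Cd68 (9.56% of all windows), the hexamer in Cd36 and Olr1 (14.0%), and GC boxes in Cd36, Cd68 and Scarb2 (32.7%). The words TATAAA (12.4% of all windows) and CACGTG (6.02%) were not found in these 5. For Cd36 and Cd68 the bases just past the RefSeq start were not found in a GENCODE transcript of the gene, so those starts rest on the RefSeq entry alone. A match describes letters in a window and not a bound site.

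Cd36, the receptor for oxidized lipoproteins, long-chain fatty acids and thrombospondin, was found mainly in cornea macrophages. The gene lies on chr5:17781690-17888801 (GRCm38, minus strand). Cornea libraries 1 to 4 held 1954, 1808, 2503 and 1698 CPM. Monocytes held 13.1, 13.6, 6.94 and 4.90 CPM, retinal microglia 0.316, 3.66, 1.19 and 1.93 CPM, and brain microglia 1.29, 0.813, 0 and 1.16 CPM. Every cornea library lay above every other library, and monocytes lay above both microglia without overlap, while the 2 microglia overlapped. The mean was 1991 ± 357 CPM in cornea (SD, n = 4) and 0.815 ± 0.579 in brain microglia, a ratio of 2443, the widest span of levels among the 7 members detected in all 4 populations. In sorted bulk cells, fewer cells with a transcript and less transcript per cell cannot be told apart. On the log2 scale cornea exceeded retina by 10.05 (SE 0.59), brain by 11.18 (SE 0.64) and monocytes by 7.69 (SE 0.52), with adjusted p = 1.59e-10 against retina and 1.13e-09 against monocytes (edgeR's quasi-likelihood test, Benjamini-Hochberg over all tested genes, as for each adjusted p that follows). Retina and brain did not differ past the threshold (log2 difference 1.13, 95% interval -0.21 to 2.46, adjusted p = 0.297). The 2 higher monocyte libraries, 1 and 2, were also those with the higher granulocyte and erythroid sums; without them cornea exceeded monocytes by 8.39, and retina and brain lay below monocytes by a log2 difference of -1.66 and -2.79 in place of -2.37 and -3.50, with adjusted p of 0.0223 and 0.00231. Cd36 is also a platelet and endothelial transcript. Of 10 megakaryocyte and platelet genes, 9 were detected in cornea with a summed 774 to 951 CPM, of which Pf4, a chemokine gene also transcribed by macrophages, made 881 ± 78.1. Of the others, Ppbp was at 11.3, 5.20, 9.69 and 5.91 CPM in cornea libraries 1 to 4 and at 0 in the microglia, Gp5 at 1.02, 2.47, 1.31 and 0 CPM in cornea, Itga2b at 0.0923 ± 0.121 CPM and Gp6 at 0. Gp9 and Clec1b went the other way. Gp9 was at 0.227, 0.341, 0.846 and 0 CPM in cornea, 17.2, 12.8, 22.8 and 10.0 in retina and 22.1, 25.1, 29.4 and 30.3 in brain. Clec1b was at 0, 0, 0.154 and 0 CPM in cornea and 1.42, 1.22, 6.25 and 1.69 in retina. The 10 endothelial genes summed to 30.4 to 42.6 CPM in cornea, 85.3 to 102 in retina, 138 to 177 in brain and 41.9 to 60.1 in monocytes, mostly from Eng and Pecam1 in the microglia. Among them Vwf was highest in cornea, at 5.22, 5.71, 9.69 and 1.59 CPM, and Cldn5 was at 0 in all 16 libraries. The part of such cells in the Cd36 level was not tested.

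Msr1 split the set another way, into cornea and monocytes against the 2 microglia. The gene, on chr8:39581685-39642673 (minus strand), encodes the class A receptor for acetylated and oxidized lipoproteins. Cornea libraries held 533, 651, 496 and 485 CPM and monocytes 278, 273, 285 and 312 CPM. Retinal microglia held 6.15, 1.03, 2.10 and 5.27 CPM and brain microglia 2.49, 3.86, 4.46 and 2.90 CPM. Both microglia thus lay far below the other populations, and the brain libraries lay within the range of the retinal ones. Log2 differences were 7.24 for cornea against retina, 7.31 for cornea against brain, -6.32 for retina against monocytes and -6.40 for brain against monocytes. Retina and brain differed by 0.07, with a 95% interval of -0.73 to 0.88 (adjusted p = 0.944). The smaller difference, cornea over monocytes, was 0.91 (SE 0.31, 95% interval 0.27 to 1.56, adjusted p = 0.0151) with no overlap of libraries. It lost the threshold when libraries were scaled by total counts alone (0.24, adjusted p = 0.504), without cornea libraries 2 and 4 (0.84, adjusted p = 0.0646) and without monocyte libraries 1 and 2 (0.85, adjusted p = 0.101). With lane as a term it was 0.87 (adjusted p = 0.0491). The difference was 1.00 within lane 2, which has a single monocyte library, and 0.74 within lane 3, which has a single cornea library.

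Marco, the second class A receptor, was found in cornea alone and at a low level. It lies on chr1:120474538-120505024 (minus strand), just after the window printed above. Cornea libraries held 17, 118, 27 and 145 counts, or 1.93, 10.1, 2.08 and 9.63 CPM (mean 5.92 ± 4.53, SD, n = 4). The 12 other libraries held no count. Taking 3 counts over a population as the limit that a count of 0 allows, cornea was at least 161-fold higher than retina, 95.5-fold higher than brain and 120-fold higher than monocytes. No p is given, since Marco entered the table of tested genes through its cornea counts alone. Libraries 2 and 4 held more Marco than libraries 1 and 3. In the order 1 to 4, the chemokine receptor gene Ccr7 held 8.51, 49.0, 4.54 and 57.9 CPM and F13a1 489, 1004, 585 and 1006 CPM. The part of other cells in that pattern was not tested.

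Olr1, which encodes the endothelial and macrophage receptor for oxidized low density lipoprotein, was highest in cornea and differed between the 2 microglia. Its position is chr6:129485244-129507165 (minus strand). Cornea held 50.8, 48.8, 82.5 and 35.5 CPM, and monocytes 12.0, 7.87, 12.1 and 4.40 CPM. Retinal microglia held 4.89, 6.06, 7.11 and 7.16 CPM, and brain microglia 0.857, 1.42, 0.595 and 1.09 CPM. All retinal libraries lay above all brain libraries, and monocytes overlapped retina but not brain. Cornea exceeded retina by 3.10, brain by 5.77 and monocytes by 2.58 on the log2 scale. Retina exceeded brain by 2.66 (SE 0.38, adjusted p = 0.000179), or 1.99 (adjusted p = 0.0321) with sequencing lane as a term. Retina against monocytes gave -0.53 (95% interval -1.19 to 0.14, adjusted p = 0.16); with lane as a term it passed the threshold, at -0.999 (adjusted p = 0.0359), and likewise without monocyte library 4, at -0.76 (adjusted p = 0.0329).

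**Figure D1:**
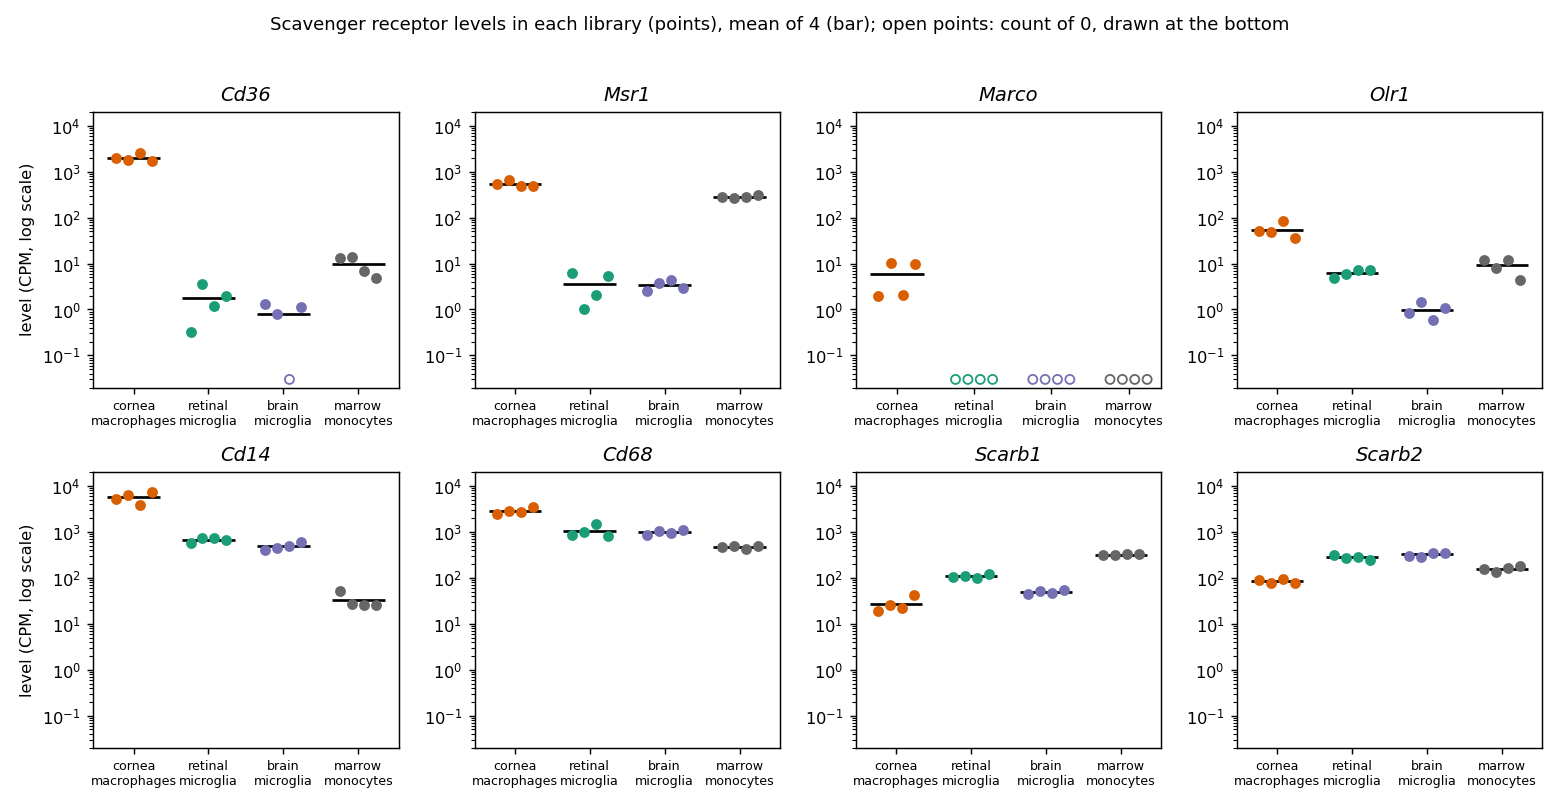
Level of each receptor in each library, in CPM on a log scale, by population; points are libraries in replicate order, bars are means of 4 and open points at the bottom are counts of 0. Cornea libraries are the highest for Cd36, Msr1, Marco, Olr1, Cd14 and Cd68 and the lowest for Scarb1 and Scarb2.

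Cd14, the lipopolysaccharide co-receptor that hands its ligand to TLR4 and MD-2, was the most abundant member per length in cornea and lowest, of the 4 populations, in monocytes. Cornea libraries held 5247, 6270, 3960 and 7310 CPM, and monocytes 52.9, 26.7, 26.1 and 26.2 CPM. Retinal microglia held 562, 756, 730.2 and 652 CPM, and brain microglia 401, 457, 493 and 597 CPM. Cornea and monocytes stood clear of all other libraries on opposite sides, and the 2 microglia overlapped between them. Cornea exceeded retina by 3.08, brain by 3.55 and monocytes by 7.42 on the log2 scale, and retina and brain exceeded monocytes by 4.35 and 3.88. The retina to brain difference of 0.47 had a 95% interval of -0.01 to 0.95 (adjusted p = 0.217). Monocyte library 1, at 52.9 CPM, is also the only monocyte library of lane 2 and the one with the most granulocyte and erythroid transcripts.

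Cd68, the late endosomal glycoprotein gene that serves as a general macrophage marker, followed the same order of populations over a narrower span. It covers chr11:69664213-69666153 (minus strand). Cornea held 2521, 2822, 2751 and 3524 CPM. Retinal microglia held 837, 990, 1463 and 821 CPM, brain microglia 848, 1029, 958 and 1108 CPM, and monocytes 462, 493, 432 and 493 CPM. The 2 microglia overlapped, and no other pair of populations did. The highest mean, 2904 ± 433 CPM in cornea, was 6.18 times the lowest, 470.3 ± 29.4 CPM in monocytes. Log2 differences were 1.50 for cornea against retina, 1.56 against brain and 2.63 against monocytes, 1.13 for retina and 1.07 for brain against monocytes, and 0.06 between the microglia (95% interval -0.29 to 0.41, adjusted p = 0.882).

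Scarb1, which encodes the high density lipoprotein receptor SR-BI, ran against the receptors above: monocytes held the most and cornea the least. It lies on chr5:125277087-125341094 (minus strand). Monocytes held 314, 316, 328 and 324 CPM and retinal microglia 104, 110, 101 and 123 CPM. Brain microglia held 45.2, 51.3, 47.6 and 53.4 CPM, and cornea 19.1, 25.1, 21.8 and 41.9 CPM. No 2 populations overlapped, and Scarb1 was the sole member called in all 6 comparisons. Cornea lay below retina by a log2 difference of -2.01, brain by -0.87 and monocytes by -3.56; retina exceeded brain by 1.15 (SE 0.18, adjusted p = 0.000507) and lay below monocytes at -1.55, and brain lay below monocytes at -2.70. Cornea library 4, the highest of its group, is the one cornea library of lane 3, where all brain libraries were run. Within that lane cornea and brain differed by -0.26 (adjusted p = 0.22) in place of -0.87 (adjusted p = 0.00052).

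Scarb2, the gene of the lysosomal membrane protein LIMP-2 that carries glucocerebrosidase to lysosomes, was highest in the microglia and varied least. It lies on chr5:92441314-92506833 (minus strand). Brain microglia held 305, 290, 355 and 354 CPM and retinal microglia 322, 275, 284 and 247 CPM. Monocytes held 159, 135, 161 and 177 CPM, and cornea 87.8, 78.7, 93.6 and 77.3 CPM. Cornea lay below and both microglia above all monocyte libraries, and the microglia overlapped. The highest mean was 3.86 times the lowest. Log2 differences were -1.74 for cornea against retina, -1.95 against brain and -0.91 against monocytes, 0.83 for retina and 1.04 for brain against monocytes, and -0.21 between retina and brain (95% interval -0.46 to 0.05, adjusted p = 0.317).

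**Figure D2:**
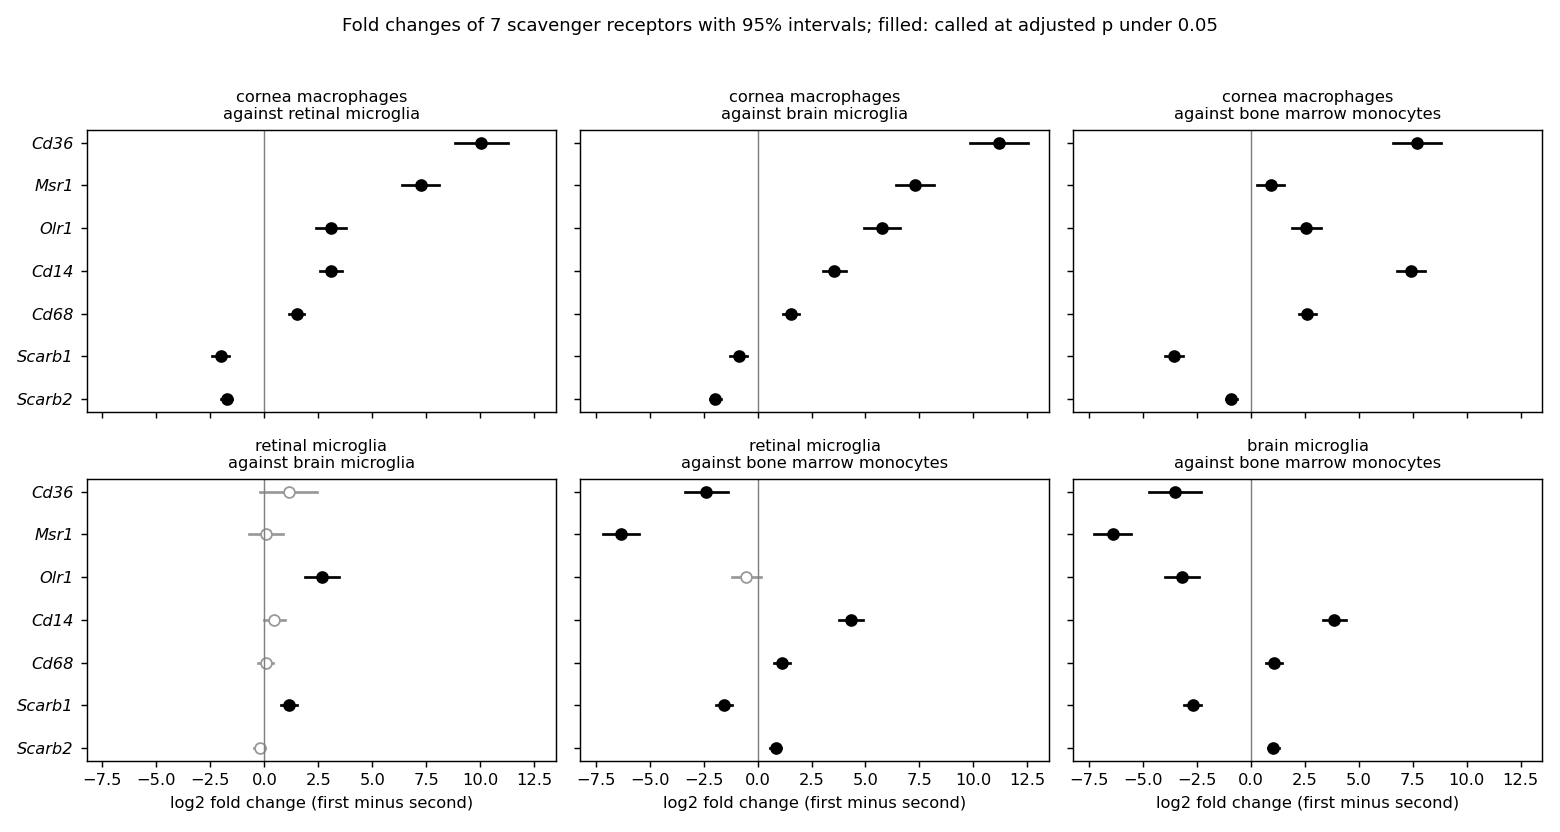
Log2 fold change (first population minus second) of 7 receptors in the 6 comparisons, with 95% intervals; filled points passed adjusted p under 0.05, and Marco is left out because its fold is a bound. The 3 cornea comparisons show 5 of these 7 receptors to the right of 0 and Scarb1 and Scarb2 to the left; between the 2 microglia only Olr1 and Scarb1 are filled.

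Counted by comparison, cornea macrophages held more of 6 members and less of 2, Scarb1 and Scarb2, against each other population; one of the 6 is Marco, which could be called in that direction alone. Over all tested genes, 30.9% were called higher and 35.1% lower in cornea than in retina, 33.8% and 33.1% than in brain, and 32.2% and 31.1% than in monocytes. The median log2 difference of the 7 members other than Marco was 3.08 against retina (all genes -0.12), 3.55 against brain (-0.00) and 2.58 against monocytes (0 over all genes). These comparisons share the cornea libraries. Scaling by total counts alone moved the median of all genes by -0.79, -0.67 and -0.67, and the share of calls that were higher in cornea from 46.8% to 25.6% against retina, from 50.5% to 31.9% against brain and from 50.9% to 31.7% against monocytes. Under it the members kept their directions, and Msr1 against monocytes was the one member call lost; the log2 difference of Cd68 became 0.71 against retina, 0.89 against brain and 1.95 against monocytes.

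Retinal and brain microglia differed in 2 members, Olr1 and Scarb1, both higher in retina, where 6.95% of all genes were called higher and 3.6% lower. No member was called lower in retina by edgeR, none at an unadjusted p under 0.05 and none by DESeq2. The median log2 difference of the 7 members was 0.47 (all genes 0.05). Total-count scaling moved the median of all genes by 0.12 in this comparison and the share of calls that were higher in retina from 65.9% to 82.3%. Retina libraries were run in lane 2 and brain libraries in lane 3, so no value within a lane exists for this pair; with lane as a term, which rests on the cornea and monocyte libraries, both calls remained and the calls over all genes went from 1662 to 463. Photoreceptor transcripts summed to 762 to 7104 CPM in retina, with library 4 the highest and library 3 the lowest, and in those Olr1 was 7.16 and 7.11 CPM and Scarb1 123 and 101 CPM, its highest and lowest value in retina. Their part in these differences was not tested.

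Against monocytes, retinal microglia held more Cd14, Cd68 and Scarb2 and less Cd36, Msr1 and Scarb1, with Olr1 not called. Brain microglia showed these 6 differences and less Olr1 as well; whether the Olr1 difference from monocytes was itself different between the microglia is the retina to brain contrast given above. Of all genes, 32.2% were called higher and 27.1% lower in retina, and 28.5% and 27.4% in brain. The median of the 7 members was -0.53 for retina (all genes 0.12) and -2.70 for brain (all genes 0.04). Total-count scaling moved the median of all genes by 0.12 for retina. Both comparisons use the same monocyte libraries.

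Set in order, the populations ran cornea, monocytes, retina, brain for Cd36, Msr1 and Olr1; cornea, retina, brain, monocytes for Cd14 and Cd68; monocytes, retina, brain, cornea for Scarb1; and brain, retina, monocytes, cornea for Scarb2. Retina and brain, neighbours in each order, did not differ past the threshold for Cd36, Msr1, Cd14, Cd68 and Scarb2, nor monocytes and retina for Olr1. Across the 16 libraries the closest pair of members was Scarb1 and Scarb2, with a root mean square difference of centred log2 CPM of 1.40, and the farthest was Cd36 and Scarb1, at 5.34. These distances share libraries and depth and are a description.

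Levels were also taken per kilobase of the gene length given with the counts. That length, 1257 bases for Cd68 and 8500 for Scarb1, need not be that of the transcripts present, so orders between genes are approximate. Without division by length Scarb2 came before Olr1 in cornea and Scarb1 before Msr1 in monocytes. Per kilobase, Cd14 led in cornea at 3624 ± 911 CPM per kb (SD, n = 4), followed by Cd68 at 2311 ± 344, Cd36 at 555 ± 99.5 and Msr1 at 135 ± 19.0. Olr1 (15.2) and Scarb2 (13.4) lay close together, as did Scarb1 (3.17) and Marco (3.08). Cd68 led in retina (818 ± 239), brain (784 ± 87.6) and monocytes (374 ± 23.4). Cd14 came next in both microglia, at 429 ± 55.4 and 310 ± 52.5 CPM per kb, and Scarb2 followed at 44.9 and 51.9. In monocytes the second place went to Msr1 (71.8 ± 4.35), followed by Scarb1 (37.7), Scarb2 (25.2) and Cd14 (21.0). The 8 members summed to 6659 ± 1103 CPM per kb in cornea, 1308 ± 274 in retina, 1153 ± 139 in brain and 535 ± 23.5 in monocytes. Cd14 made 53.9% of that sum in cornea, 33.3% in retina, 26.8% in brain and 3.92% in monocytes, and Cd36 8.66% in cornea.

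**Figure D3:**
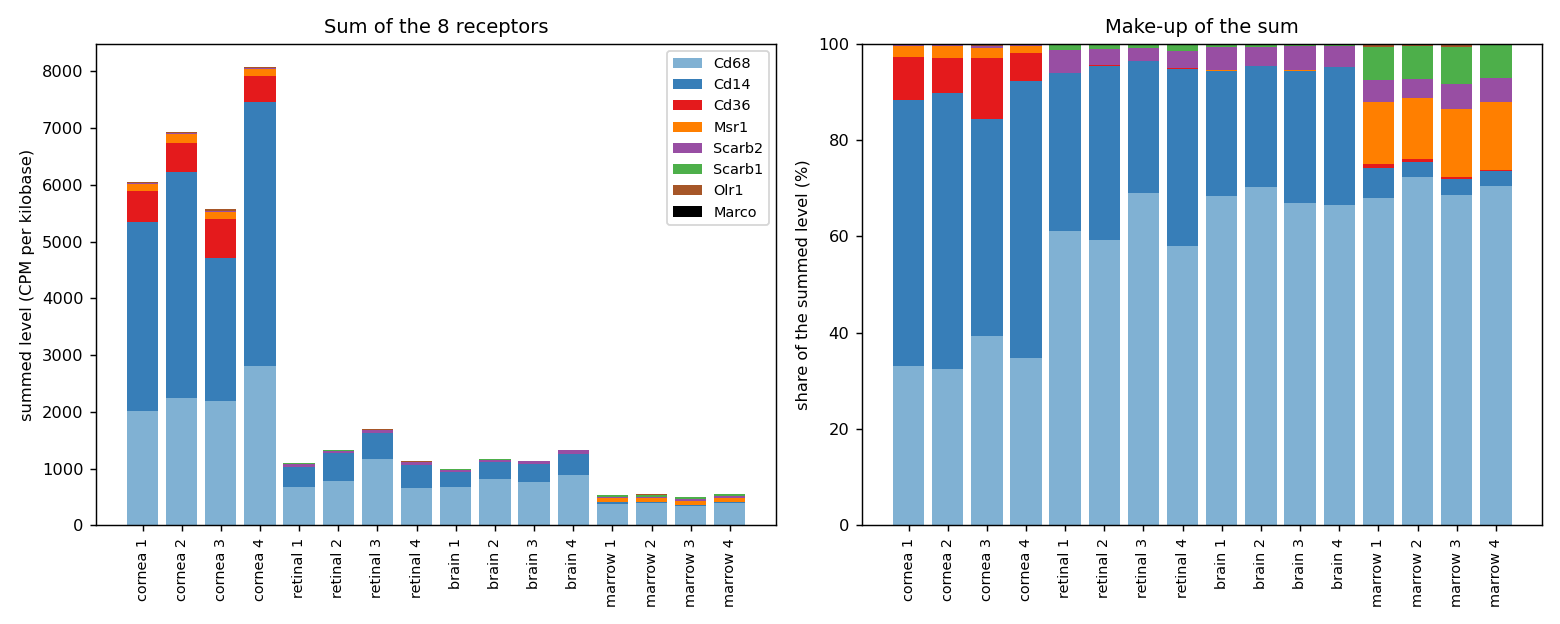
Sum of the 8 receptors in CPM per kilobase (left) and the share of each in the sum (right, percent), one stacked bar per library. Cornea bars stand highest, with Cd14 as the main part, and Cd68 is the main part in the other 3 populations.

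For each member the 3 tested genes with the nearest pattern over the 16 libraries were listed by the same root mean square measure. Cd36 was nearest to Clec4d (1.05), Tnip3 (1.06) and Spic (1.09), and Msr1 to Fam83f (0.58), Ptger2 (0.61) and Iqgap1 (0.65). Marco, at 0 outside cornea, was nearest to the chemokine gene Ccl17 (0.25), Serpinb9b (0.35) and C1qtnf2 (0.38). Cd14 was nearest to the complement C5a receptor gene C5ar1 (0.28), which held 3181, 464, 289 and 27.7 CPM in cornea, retina, brain and monocytes, then Bcl2a1a (0.51) and Socs3 (0.56). Cd68 was nearest to Efhd2 (0.19), Cmtm3 (0.19) and Rtn4 (0.21). Scarb1 was nearest to Naaa (0.27), Cdc42ep3 (0.30) and Ccl6 (0.39), and Scarb2 to Cryl1 (0.13), Mesdc2 (0.16) and Ccng2 (0.17). Olr1 was nearest to H2-Q7 (0.61), Gng11 (0.68) and H2-K2 (0.70); H2-Q7, H2-K2 and Bcl2a1a have near-identical copies, so their counts are uncertain.

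Related gene lists are described by their counts, to be read beside the shares of all genes called in the same comparison, given above; no list was tested as a set. Among 16 further scavenger receptor genes, 10 were tested. In cornea 6 were called higher and 3 lower than in retina, 5 and 2 than in brain, and 6 and 1 than in monocytes. The haemoglobin receptor gene Cd163 held 167 ± 45.9 CPM in cornea, 1.16 ± 1.62 in retina and no count in brain, where cornea was at least 2594-fold higher. The mannose receptor gene Mrc1 held 1553 ± 101 CPM in cornea against 9.31 ± 3.07 in retina and 19.0 ± 6.71 in brain, and was the one gene of the list called lower in retina than in brain (log2 difference -1.04, adjusted p = 0.00644). Retina and brain libraries overlapped for Mrc1, at 7.00 to 13.7 CPM in retina and 13.1 to 27.8 in brain. Cxcl16, a transmembrane chemokine that also binds oxidized lipoprotein, held 2062 ± 153 CPM in cornea and 2.95 ± 1.14 in monocytes. Stab1, a modified lipoprotein receptor, held 638 ± 136 CPM in cornea, 157 ± 39.4 in retina, 309 ± 50.1 in brain and 1.83 ± 1.51 in monocytes. Lrp1 and Scarf2 went the other way: Lrp1 was lower in cornea (284 ± 38.6 CPM) than in retina (458 ± 138) and brain (494 ± 91.2), and Scarf2 lower in cornea (1.84 ± 1.39) than in retina (12.9 ± 2.06) and brain (6.21 ± 2.23). Libraries overlapped for Lrp1 between cornea and retina and for Scarf2 between cornea and brain. Against monocytes, 3 were higher and 4 lower in retina and 3 and 3 in brain; Colec12 and Scarf1 were among those lower in both microglia.

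The 14 genes of the lipopolysaccharide and lipopeptide receptor complex did not all follow Cd14. In cornea 5 were called higher and 7 lower than in retina and likewise than in brain, with 4 and 7 against monocytes. Tlr2, the lipopeptide receptor that also uses CD14 and CD36, held 1669 ± 174 CPM in cornea, 335 ± 40.8 in retina, 236 ± 26.0 in brain and 190 ± 15.9 in monocytes. Ly96, the gene of MD-2, was higher in cornea (45.8 ± 2.26 CPM) than in retina (14.3 ± 3.43). Tlr4 itself was lower in cornea (41.5 ± 11.9 CPM) than in brain (210 ± 28.0; log2 difference -2.35, adjusted p = 4.68e-08), and lower in retina (133 ± 17.8) than in brain (-0.66, adjusted p = 0.0481). Ly86, the gene of the RP105 partner MD-1, was lower in cornea (257 ± 33.4 CPM) than in retina (1308 ± 421) and brain (961 ± 233). Lbp, the gene of the serum protein that loads CD14, reached 19.0 ± 2.97 CPM in monocytes and stayed below 0.1 CPM on average elsewhere. It passed the filter through its monocyte counts alone, so against monocytes it could only be called lower. Retina against brain gave 1 higher (Tlr2) and 2 lower (Tlr4 and Irak4). Against monocytes the counts were 5 higher and 4 lower in retina and 7 and 5 in brain.

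Of 15 genes for CD36 partners in uptake, signalling and lipid sensing, cornea held more of 10 and less of 4 than retina, 10 and 3 than brain, and 12 and 3 than monocytes. Fabp4, in this list, passed the filter through its cornea counts alone and could only be called higher in cornea. Pparg, the nuclear receptor gene known to activate Cd36 transcription, held 178 ± 37.9 CPM in cornea, 10.7 ± 1.94 in monocytes, 0.215 ± 0.254 in brain and no count in retina, so that cornea was at least 4473-fold above retina. Fabp4, a fatty acid carrier gene, held 136 ± 14.4 CPM in cornea and 1.36 ± 2.30 in retina. The tetraspanin genes Cd9 and Cd81, whose products associate with CD36, were lower in cornea than in retina: Cd81 held 818 ± 236 CPM against 6818 ± 1332, and Cd9 617 ± 86.2 against 1668 ± 513. Lpl, the lipoprotein lipase gene, was highest in monocytes (452 ± 56.0 CPM) and was called lower than there in cornea, retina and brain. Fabp5 was higher in retina (6.50 ± 2.44 CPM) than in brain (0.306 ± 0.0954; log2 difference 4.36, adjusted p = 1.57e-06), one of 2 higher and 6 lower for that pair. Against monocytes 4 were higher and 8 lower in retina and 5 and 5 in brain.

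**Figure D4:**
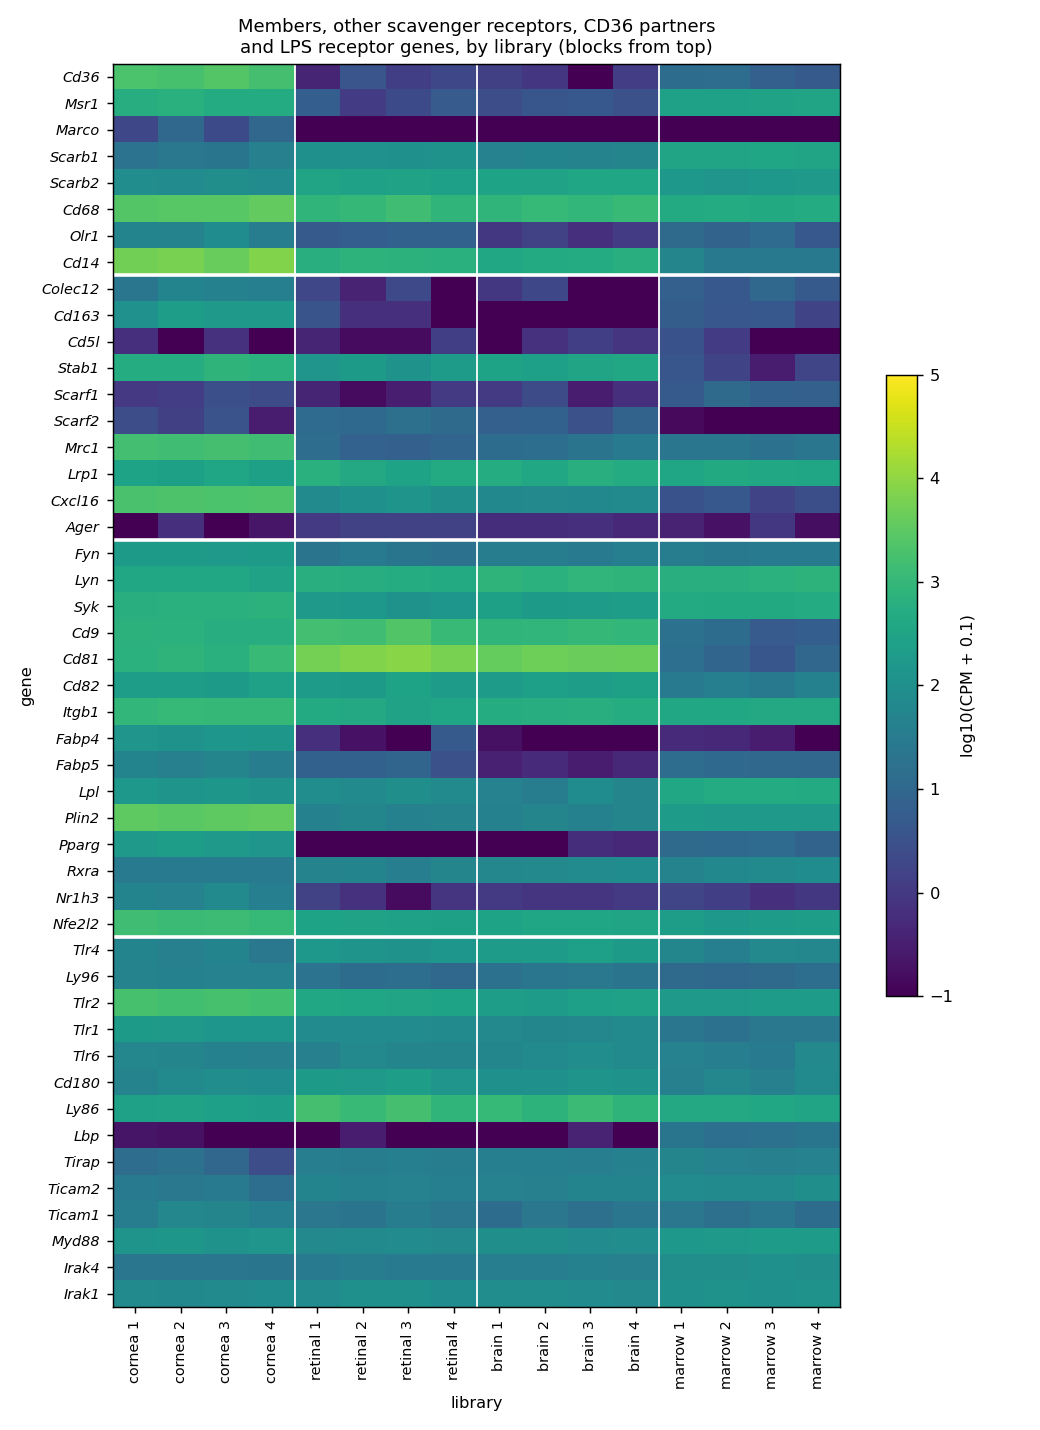
Colour gives log10(CPM + 0.1) for the 8 members, 10 further scavenger receptors, 15 CD36 partners and 14 lipopolysaccharide receptor genes (blocks from top) in the 16 libraries. In the cornea columns Cd36, Msr1, Cd14, Mrc1, Cxcl16, Pparg, Fabp4 and Tlr2 are brighter than in the microglia columns, and Cd81, Tlr4 and Ly86 are darker.

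Sterol handling genes did not follow Scarb1. Of 10 tested from a list of 12, cornea held more of 9 than retina, with none lower (none at an unadjusted p under 0.05, none by DESeq2), more of 9 and less of 1 than brain, and more of 6 and less of 1 than monocytes. Apoe, the apolipoprotein E gene, held 22793 ± 3807 CPM in cornea, 2531 ± 842 in retina and 523 ± 34.5 in brain. The cholesterol exporter gene Abca1 held 736 ± 201 CPM in cornea, 348 ± 50.0 in brain, 108 ± 52.5 in retina and 6.53 ± 3.84 in monocytes. Abcg1 was the gene lower in cornea than in brain (67.9 ± 7.23 against 236 ± 31.7 CPM). Between the microglia 3 were higher and 2 lower in retina: Apoe was among the higher (log2 difference 2.27, adjusted p = 4.62e-06), and Abca1 and Abcg1 were the 2 lower. Against monocytes 4 were higher and 5 lower in retina and 4 and 6 in brain.

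The 13 listed lysosomal genes related to LIMP-2 were all tested, and they did not all follow Scarb2. Cornea held more of 6 and less of 2 than retina and likewise than brain, and more of 11 and less of 2 than monocytes. Ctsd, the cathepsin D gene, was among those lower against the microglia, with 5119 ± 733 CPM in cornea, 14271 ± 3566 in retina and 17721 ± 2145 in brain. Cd63, a lysosomal tetraspanin gene, was higher in cornea (502 ± 85.0 CPM) than in retina (94.1 ± 22.2) and monocytes (2.21 ± 2.10). No gene of the list was called between retina and brain in either direction, 0 at an unadjusted p under 0.05 by edgeR and 0 by DESeq2. Against monocytes 8 were higher and 3 lower in retina and 9 and 3 in brain, with Psap, the saposin precursor gene, lower in both.

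The 13 listed transcription factor genes tied to these receptors, were all tested. In cornea 8 were called higher and 2 lower than in retina, 9 and 1 than in brain, and 10 and 2 than in monocytes, beside the shares of all genes given above. Ets2 held 777 ± 52.9 CPM in cornea, 22.4 ± 3.38 in retina, 34.5 ± 4.34 in brain and 3.47 ± 0.689 in monocytes. Cebpb held 1235 ± 184 CPM in cornea, 129 ± 16.8 in retina and 88.3 ± 36.7 in brain. Klf2 and Klf4 were lower in both microglia than in monocytes. Between the microglia Klf2 (56.1 ± 14.3 against 8.48 ± 2.87 CPM) and Srebf2 (30.4 ± 8.83 against 13.9 ± 3.16 CPM) were higher in retina and Ets2 was lower. For retina against monocytes the counts were 5 higher and 4 lower, and for brain 7 and 5. Several of these factors are early response genes, and the immediate-early and dissociation sums given above moved with cornea too. A large part of those sums was heat shock genes: in cornea library 1, Hspa1a and Hspa1b held 6964 and 8004 of 26256 CPM. Of the listed factors, Fos was higher in every cornea library (212, 229, 400 and 222 CPM) than in the microglia. Monocyte libraries 1 to 4 held 284, 87.4, 27.9 and 21.2 CPM of Fos, so that library 1 lay within the cornea range. Jun overlapped, at 303 to 536 CPM in cornea, 224 to 569 in retina and 403 to 659 in brain. The part of isolation was not tested.

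**Figure D5:**
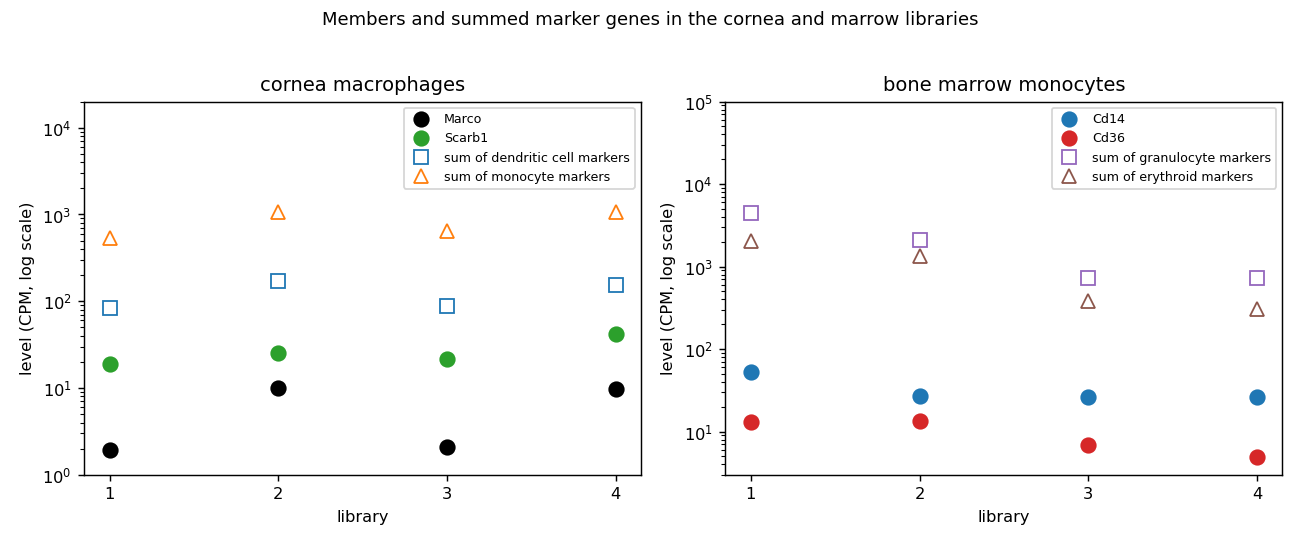
Marco and Scarb1 beside summed dendritic cell and monocyte genes in the 4 cornea libraries (left), and Cd14 and Cd36 beside summed granulocyte and erythroid genes in the 4 monocyte libraries (right), in CPM on a log scale. Cornea libraries 2 and 4 hold more Marco (10.1 and 9.63 CPM) and higher sums of both lists, and monocyte library 1 holds the most Cd14 (52.9 CPM) and the highest granulocyte and erythroid sums.

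Lanes were checked for each comparison that had libraries in common lanes. Within lane 2 all 8 members were called for cornea against retina, where 10144 genes were called in all and Marco could only be called higher. Within lane 3, 7 members were called for brain against monocytes, where 9067 genes were called in all. Lane 2 has a single monocyte library and lane 3 a single cornea library, so no count of calls is given for comparisons with these. There the lone library is assumed to vary like the other groups. The values within lanes all had the direction of the pooled ones, among them Msr1 and Scarb1 as given. The largest shift was for Cd14, where cornea exceeded monocytes by 6.60 within lane 2 and 8.11 within lane 3 in place of 7.42.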

How the data were processed

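RNA-seq counts of 16 libraries, 4 per population, were used as deposited: whole-number counts per gene that the authors obtained with featureCounts of the Subread package, per the submitters' processing notes, which also name CASAVA 1.8.2 and genome build GRCm38.p4. Counting settings and strand use were not stated in these sources, and the labels' extraction text describes another tissue. The table's gene length column was used to give CPM per kilobase. Libraries were grouped by the named source; lanes come from the column names. Entries renamed as dates (27) took at most 0.223% of a library. Genes were kept by edgeR 4.0.16 (filterByExpr, minimum count 10), scaled by TMM, fitted over all 16 libraries with population as the term and tested by quasi-likelihood F tests (R 4.3.3) with Benjamini-Hochberg adjustment over 15754 genes; a gene was called at an adjusted p under 0.05. The fit was tested on simulated data. Counts of 0 are bounded by 3 counts over a population; bounds and intervals cover counting or library spread only. Pattern likeness used log2 CPM with a prior count of 2. Beside all 8 members, the text names, per member, the 3 most alike genes and, per pathway list and comparison, up to 2 called genes per direction with the largest change and a mean of at least 5 CPM in one population. Marker genes of other cell types were named from marker lists. Members and lists were chosen with earlier results of these data known. Gene positions are from the GENCODE annotation of GRCm38; no other annotated gene shares exon bases with a member. Msr1, Scarb1 and Cd14 upstream sequences were not used here. Alternatives were other scaling, no filter, DESeq2 1.42.0, fits of 2 populations, a lane term, single lanes, a replicate block and leaving out libraries. Single lanes and the removal of cornea libraries 2 and 4 or monocyte libraries 1 and 2 were chosen after seeing the data. Some genes that the naming rule picks are not reported here.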

Additional observations from a re-analysis of the deposited data

Results flagged for a closer look

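Cd14 in bone marrow monocyte library 1, at 52.9 CPM, stood apart from the other 3 libraries of its population, of which the nearest held 26.7 CPM; the gap made 0.978 of the whole range. This library also had the highest granulocyte and erythroid sums (4493 and 2051 CPM) and is the only monocyte library of lane 2. Their part in the value was not tested. The threshold used to pick out such gaps is passed by chance in about 1 of 20 groups, and 29 groups of member values were examined.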

How the results depend on the processing

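Over 1216 member values recomputed under the alternatives, 1201 kept their direction and side of the threshold, 5 lost it, 2 gained it and 8 changed sign. These values include Marco, whose cornea calls its counts of 0 elsewhere had fixed. They also include fits without a library of a population outside the comparison, which left the compared counts as they were. The 1201 is therefore no measure of stability. The number of members called stayed within 1.5 times in each comparison under each alternative run. The losses were Msr1, cornea against monocytes (0.24 with total counts only, 1.00 within lane 2, 0.84 without cornea libraries 2 and 4, 0.85 without monocyte libraries 1 and 2), and Scarb1, cornea against brain (-0.26 within lane 3). The gains were Olr1, retina against monocytes (-0.999 with lane as a term, -0.76 without monocyte library 4). The sign changes were all between retina and brain for members not called there: Msr1 at -0.077 and Cd68 at -0.13 without the 3 libraries whose titles lack the letter b, and, with 1 library left out, Msr1 between -0.25 and 0.39 and Cd68 between -0.16 and 0.15. The cause was not tested. Brain and monocyte libraries share title ranges 4-6 and 7-9. Deviations of same-range libraries correlated at -0.00964 and 0.0327 over 15754 genes. Between different cell types, such values cannot tell whether these libraries came from the same animals or day. A fit with these ranges as a replicate block called 8, 8, 8, 2, 6 and 7 members in the 6 comparisons, as without the block. The order is cornea against retina, brain and monocytes, retina against brain and monocytes, and brain against monocytes. Over all genes the block fit called 10226, 9657, 9162, 813, 8429 and 8575. Without the block these counts were 10399, 10526, 9980, 1662, 9338 and 8817. The 813 and 1662 are for retina against brain. Between those 2 populations DESeq2 called 2376 genes and the lane term left 463. Depth limits Marco, Cd36 in microglia and other values near 1 CPM.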
